A study of Mus musculus with 8 samples.

Results

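Neuronal immediate early genes were followed in the hippocampus of mice that lack the lysosomal enzyme beta-glucuronidase. The 10 genes, Egr1, Egr2, Egr3, Fos, Fosb, Junb, Arc, Nr4a1, Dusp1 and Homer1, were taken by symbol. They were measured by 13 of the 22626 probe sets that are not array controls, 3 of them for Homer1 and 2 for Egr2. The study hybridised 8 Affymetrix arrays, 1 per animal, with RNA of the right hippocampus. The 4 normal mice carried 1 copy of the mps allele of Gusb (mps/+), so they were carriers and not wild type, and the 4 mutants carried 2 copies (mps/mps). Both groups were on the strain background labelled bl6 (B6.C-H2-Kbm1/ByBir) and held 2 females and 2 males. Normals 1 to 4 were aged 38.3, 25.6, 19.6 and 14.6 weeks, and mutants 1 to 4 were aged 38.3, 25.6, 25.6 and 19.6 weeks. Values are log2 expression per probe set as the authors deposited them, so a difference of 1 is a doubling.

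Immediate early genes are transcribed within minutes of a stimulus, without new protein synthesis. In neurons calcium entry through synaptic receptors and channels activates kinases that act on CREB and on serum response factor, which bind the cAMP response element (CRE) and the CArG box. The Egr zinc finger proteins, the Fos and Jun leucine zipper proteins and the orphan nuclear receptor Nr4a1 are transcription factors, Arc and Homer1 act at the postsynaptic side, and Dusp1 is a phosphatase that shuts off MAP kinases. In the hippocampus these genes are widely used as markers of recently active neurons.

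RefSeq promoter sequences (GRCm38.p6) were listed for 7 of the 10 genes, in 12 windows of 250 bases before a transcription start. None was listed for Egr1, Egr3 and Arc. The sequences are those of Egr2, Nr4a1 and Homer1, whose levels divided the arrays in the same way, and that of Fos, whose level did not. Capitals mark matches to the CRE core TGACG on either strand and to the CArG box, and each sequence runs 5′ to 3′ on the gene's strand.
Egr2 (chr10:67537619-67537868, plus strand): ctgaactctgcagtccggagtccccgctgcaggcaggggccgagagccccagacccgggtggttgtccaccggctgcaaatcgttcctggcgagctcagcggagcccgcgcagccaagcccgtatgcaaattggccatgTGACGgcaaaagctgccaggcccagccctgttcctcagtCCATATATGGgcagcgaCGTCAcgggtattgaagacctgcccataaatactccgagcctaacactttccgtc
Nr4a1 (chr15:101266596-101266845, plus strand): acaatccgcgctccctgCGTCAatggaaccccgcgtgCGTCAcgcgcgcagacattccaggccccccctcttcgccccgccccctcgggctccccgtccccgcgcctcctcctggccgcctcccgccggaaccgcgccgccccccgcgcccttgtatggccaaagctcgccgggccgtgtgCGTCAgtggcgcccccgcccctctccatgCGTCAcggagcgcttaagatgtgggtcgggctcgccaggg
Homer1 (chr13:93303507-93303756, plus strand): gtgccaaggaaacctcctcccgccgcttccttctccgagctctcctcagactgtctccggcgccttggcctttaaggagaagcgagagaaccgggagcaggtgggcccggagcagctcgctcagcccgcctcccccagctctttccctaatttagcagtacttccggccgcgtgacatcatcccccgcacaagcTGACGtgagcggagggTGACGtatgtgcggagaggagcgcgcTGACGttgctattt
Fos (chr12:85473640-85473889, plus strand): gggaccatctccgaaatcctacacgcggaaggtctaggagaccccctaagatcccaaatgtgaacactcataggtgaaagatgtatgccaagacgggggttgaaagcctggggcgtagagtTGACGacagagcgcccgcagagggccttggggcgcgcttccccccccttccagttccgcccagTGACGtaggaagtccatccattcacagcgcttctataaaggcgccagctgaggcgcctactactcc

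The TGACG core was found in 9 of the 12 windows and in at least 1 window of each of the 7 genes. For comparison, 17.8% of 32851 windows and 19.8% of 27025 genes in the promoter table held it. Nr4a1 had 4 such matches, Homer1 had 3 in the window shown and Fos had 2. The full CRE, TGACGTCA, which holds that core on both strands, was found in the Dusp1 window and in 1.55% of all windows. A CArG box was found in 4 of the 5 Egr2 windows, 3 of which overlap and share 1 match, and in 1.47% of all windows. Egr sites (GCGNGGGCG) were found in the Fosb and Nr4a1 windows, against 4.70% of all windows, while AP-1 sites (TGANTCA) were found in 0 of 12, against 6.75%. A match describes letters in the window, not binding. Bases outside the windows were not searched, so a missing match does not mean that the gene has no such site.

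Several arrays stood apart before any gene was compared. In normal 1 the 3 prime minus 5 prime value of the actin and Gapdh controls, a measure of RNA quality, averaged 3.58, against 0.22 to 0.75 in the other 7 arrays. Striatal neuron markers (8 measured of 12 listed, all 8 above the absent bacterial controls on every array) had a mean of 10.26, 10.27 and 9.27 in normals 1, 3 and 4, and of 6.59 to 7.49 in normal 2 and the 4 mutants. Telencephalic excitatory neuron markers (6 of 10) had their highest means in mutant 3, 7.95, and normal 3, 7.46. Markers of thalamus and habenula (14 of 15) were highest in mutants 2 and 4, 9.69 and 9.53. Only 4 of the 6 telencephalic and 12 of the 14 thalamic and habenular genes exceeded the absent controls on every array. All arrays are labelled hippocampus. Of the 2 Gusb probe sets, one had means of 5.95 ± 0.48 in normals and 4.55 ± 0.15 in mutants (SD, n = 4 each, without overlap, limma adjusted p = 0.136), and the other overlapped (5.12 to 6.40 and 5.55 to 6.59).

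Among the Egr genes, Egr2 showed the widest range over the arrays and Egr3 hardly varied. Egr2 encodes a zinc finger factor known from hindbrain patterning and myelination as well as from neuronal activity. On the probe set with the higher mean it stood at 8.43, 4.18, 7.44 and 6.85 in normals 1 to 4 and at 3.98, 3.83, 5.80 and 3.22 in mutants 1 to 4. Normals 1, 3 and 4 lay above every mutant, normal 2 lay among the mutants, and mutant 3 was the highest mutant. The mean was 6.72 ± 1.82 in normals and 4.21 ± 1.11 in mutants (SD, n = 4 each). The difference of mutant minus normal was -2.52 ± 0.90 (SE) on the log2 scale, with a 95% interval of -4.59 to -0.45. It did not pass over all probe sets (limma adjusted p = 0.795). Mutant 4 lay below the highest absent bacterial control, 3.72, and mutants 1 and 2 just above it, so no fold is given. The second Egr2 probe set had the same 4 arrays on top, at 6.37, 5.03 and 4.87 in normals 1, 3 and 4 and 4.16 in mutant 3. Its other 4 arrays, at 2.16 to 2.71, lay within the range of the absent bacterial controls.

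Egr1, also called Zif268, is needed in mice for the late phase of synaptic potentiation. It stood at 12.12, 9.90, 11.76 and 11.44 in normals 1 to 4 and at 9.80, 9.21, 11.25 and 9.74 in mutants 1 to 4. As for Egr2, normals 1, 3 and 4 and mutant 3 were the 4 highest arrays, and the groups overlapped through normal 2 and mutant 3. The group means were 11.31 ± 0.98 and 9.999 ± 0.87 (SD, n = 4 each), a log2 difference of -1.31 ± 0.56 (SE, 95% interval -2.59 to -0.02, limma adjusted p = 0.829). Egr3 kept to 4.92 to 5.45 in normals and 4.79 to 5.36 in mutants, a difference of -0.21 ± 0.17 (SE, limma adjusted p = 0.921).

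Fos and Jun proteins pair to form the AP-1 factor. Fos itself, the gene most often used to map neuronal activity, stood at 9.84, 9.31, 9.08 and 9.33 in normals 1 to 4 and at 9.29, 8.86, 9.24 and 9.34 in mutants 1 to 4. Normal 1 was the highest and mutant 2 the lowest array, and the groups overlapped. The Fos difference was -0.20 ± 0.18 (SE), with a 95% interval of -0.63 to 0.22, so a change of a doubling in either direction lies outside it. Fosb stood at 7.09 in normal 1, at 4.58 to 5.50 in the other normals, and at 4.34, 4.52, 5.53 and 4.37 in mutants 1 to 4. Its difference was -0.86 ± 0.53 (SE, 95% interval -2.07 to 0.35, limma adjusted p = 0.898) and was -0.34 without normal 1. Junb was highest in normal 3, 7.13, and mutant 3, 6.97, and lowest in mutant 2, 4.61. Its normal mean of 6.10 ± 0.80 and mutant mean of 5.63 ± 1.04 (SD, n = 4 each) differed by less than either spread.

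Nr4a1, or Nur77, is an orphan nuclear receptor that binds DNA. It stood at 8.83, 7.99, 9.54 and 9.11 in normals 1 to 4 and at 7.04, 7.03, 9.31 and 7.41 in mutants 1 to 4. Mutant 3 lay above 3 of the 4 normals, and the other 3 mutants lay below all of them. The difference was -1.17 ± 0.54 (SE, 95% interval -2.41 to 0.07), or 2.25-fold lower in mutants, and did not pass (limma adjusted p = 0.857).

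Arc and Homer1 encode proteins that act at the synapse. Arc, whose protein drives the internalisation of AMPA-type glutamate receptors, stood at 8.57, 6.68, 8.71 and 7.58 in normals 1 to 4. Its mutant values were 6.37, 5.69, 8.70 and 6.08. Mutant 3 and normal 3 differed by 0.01, whereas the other 3 mutants lay below every normal. The difference was -1.18 ± 0.70 (SE, 95% interval -2.79 to 0.44, limma adjusted p = 0.898).

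Homer1 encodes a postsynaptic scaffold that links group I metabotropic glutamate receptors to their partners, and a short activity-induced form that interrupts those links. Its 3 probe sets were not assigned to these forms here. The probe set with the highest mean stood at 6.29, 4.60, 7.31 and 7.09 in normals 1 to 4 and at 4.65, 4.48, 6.06 and 4.14 in mutants 1 to 4. Normals 1, 3 and 4 and mutant 3 were again on top. The difference was -1.49 ± 0.64 (SE, 95% interval -2.95 to -0.04), 2.81-fold lower in mutants (limma adjusted p = 0.829). A second probe set stood at 5.08, 4.50, 6.68 and 6.49 in normals and at 4.21 to 4.94 in mutants, a difference of -1.22 ± 0.48 (SE). The third exceeded the absent controls on 0 of 8 arrays, so no fold is given, although it had the smallest p of the 13 (unadjusted p = 0.00942 in limma, adjusted p = 0.638).

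Dusp1, the phosphatase, ranked the animals in another order. It stood at 10.43, 9.71, 9.96 and 9.16 in normals 1 to 4 and at 9.09, 9.54, 9.91 and 9.82 in mutants 1 to 4. Normal 4, which was among the 4 highest arrays for 9 of the 10 genes, was second lowest for Dusp1. The difference was -0.23 ± 0.29 (SE, 95% interval -0.88 to 0.43, limma adjusted p = 0.943).

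**Figure D1:**
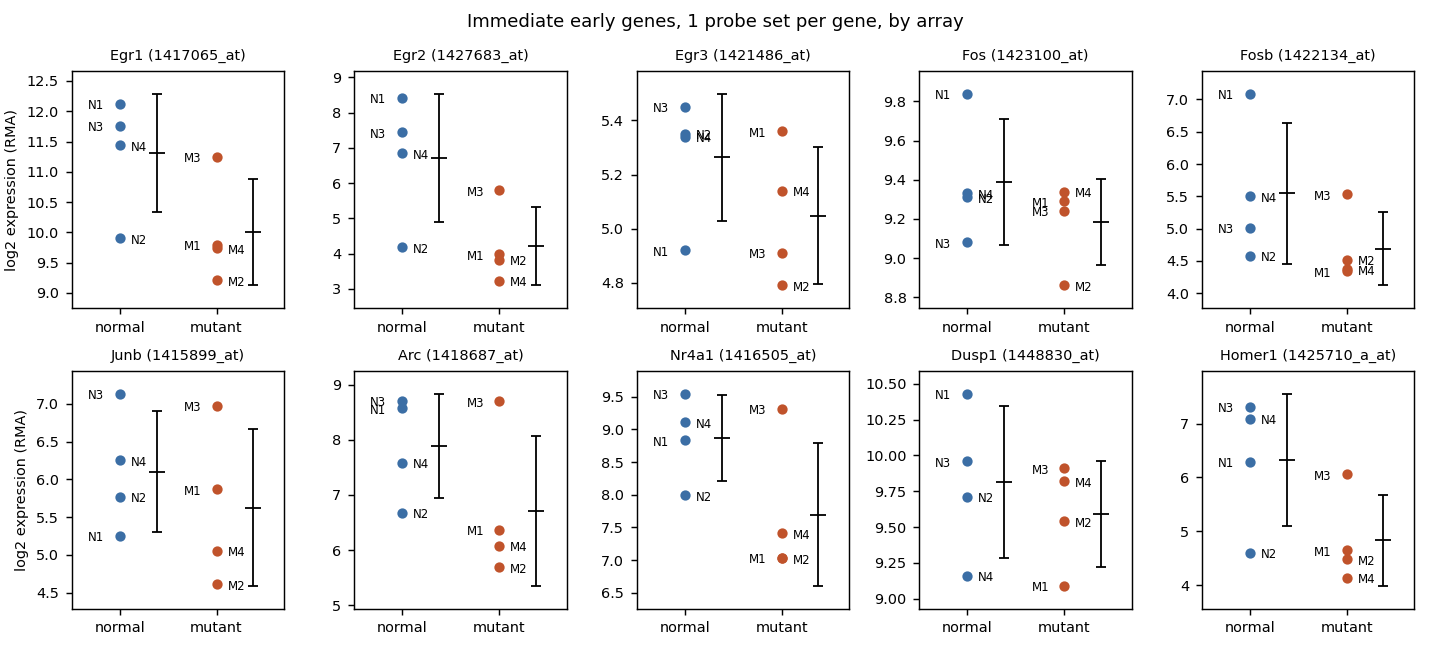
Log2 expression of the 10 genes, 1 probe set each, on the 4 normal arrays (N1 to N4, blue) and the 4 mutant arrays (M1 to M4, orange), with the mean and SD of each group in black; each panel has its own scale. In the panels of Egr1, Egr2, Arc, Nr4a1 and Homer1 normal 2 lies near the mutants and mutant 3 near the normals, so no panel separates the groups.

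Across the 13 probe sets, 0 passed adjusted p 0.05 in limma, where 0.0884% of all probe sets did (0.0796% higher and 0.00884% lower in mutants). The mutant mean was lower for 13 of 13, where 52.9% of all probe sets had a lower mutant mean, and the median difference was -1.17 against -0.01 over all probe sets. These 13 are not independent, since most of them ranked the same animals high. At an unadjusted p under 0.05 there were 6 (Egr1, both Egr2 and all 3 Homer1 probe sets), against 5.95% of all probe sets. The groups overlapped for 13 of 13, where 3.56% of all probe sets had groups that did not overlap (1.75% with the mutants lower). In tissue pieces such as these, fewer cells of a type and less RNA per cell cannot be told apart.

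**Figure D2:**
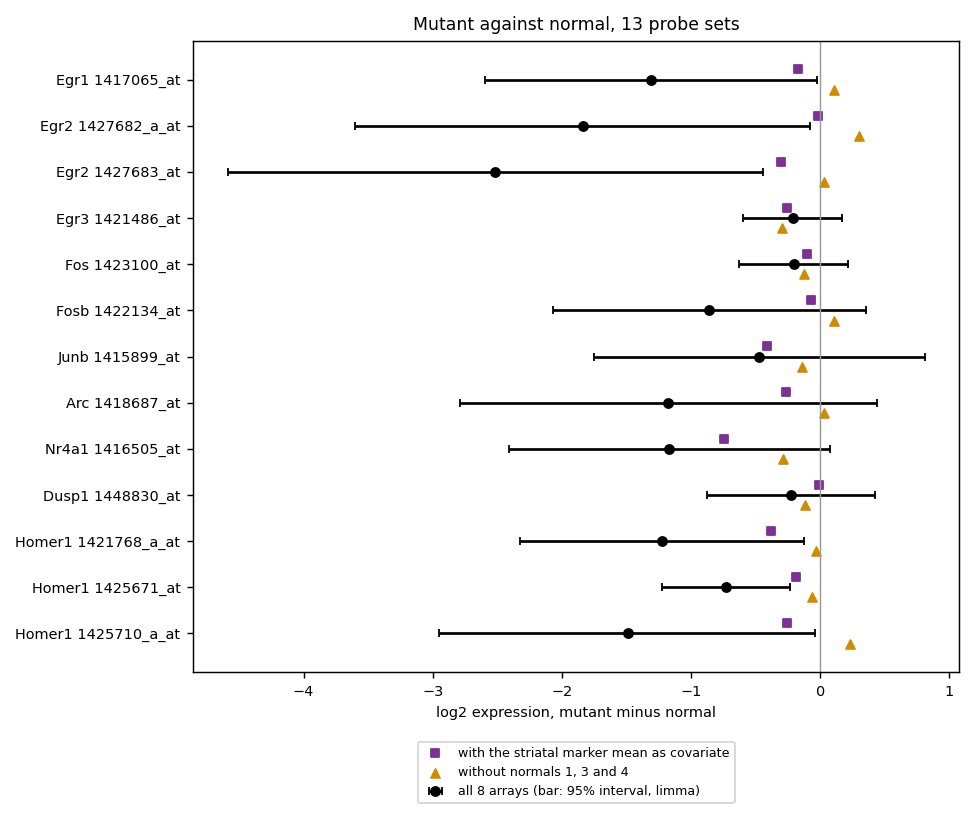
Log2 difference of mutant minus normal for the 13 probe sets with all 8 arrays (black, bar: 95% interval from limma), with the striatal marker mean as a covariate (purple squares) and without normals 1, 3 and 4 (orange triangles). With all arrays every point lies below 0, from -2.52 for Egr2 to -0.20 for Fos; without those 3 normals, in which most of these genes were highest and which leave 1 normal animal, the points lie between -0.30 and 0.30.

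The spread between animals of the same genotype was wide for most of these genes. The within-group SD had a median of 0.90 over the 13 probe sets and 0.25 over all probe sets, and 9 of the 13 lay above the 95th percentile of all probe sets. Egr2 had the widest, 1.51 (percentile 99.6), followed by its second probe set (1.28) and Arc (1.17, percentile 98.8). Fos, with 0.28, and Egr3, with 0.24 (percentile 48.6), varied about as much as the typical probe set. Over the 8 arrays Arc spanned 8.09-fold, Egr1 7.55-fold and Fos 1.97-fold.

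**Figure D3:**
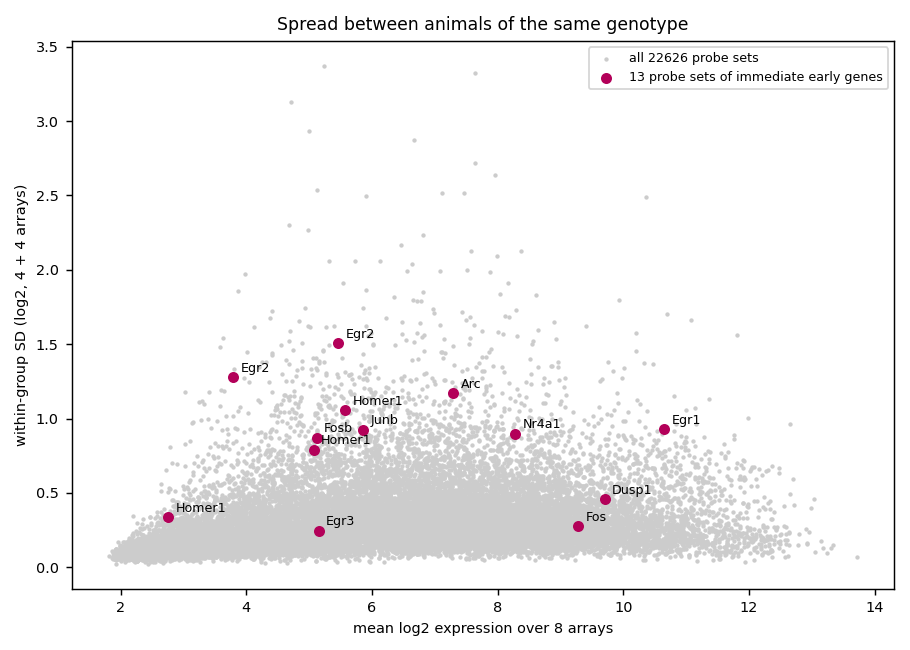
Mean log2 expression over the 8 arrays (x axis) against the within-group SD (y axis) for all 22626 probe sets (grey) and the 13 probe sets of immediate early genes (magenta). Egr2, Arc, Homer1, Egr1, Junb, Nr4a1 and Fosb lie in the upper part of the cloud with SDs of 0.79 to 1.51, while Fos, Egr3, Dusp1 and 1 Homer1 probe set lie inside it.

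Most members ranked the animals alike. Normals 1, 3 and 4 and mutant 3 were the 4 highest arrays for 9 of the 13 probe sets, those of Egr1, Egr2, Fosb, Arc, Nr4a1 and Homer1. The same 4 arrays were on top for 4.54% of all probe sets. These arrays were picked from the values of the members, so the excess over that share follows in part from the choice. Several of the 9 probe sets also measure the same gene, Egr2 or Homer1. The 9 include the third Homer1 and the second Egr2 probe set, whose order rests in part on values within the absent controls. Of the 10 that exceeded those controls on every array, 6 had these arrays on top, against 5.31% of 16882 such probe sets. In Egr1, Egr2, Nr4a1 and Homer1 a gap separated these 4 arrays from normal 2 and mutants 1, 2 and 4. It was 1.35 wide in Egr1, 1.62 in Egr2, 0.84 in Nr4a1 and 1.404 in Homer1 on the log2 scale, which is 31.2% to 46.4% of each gene's range. Because the arrays fell into clusters of 4 for these genes, no correlation over all 8 arrays is given for them, and neither cluster has the 6 arrays that a correlation within it would need. Arc (33.0% of its range) and Egr3 (34.1%) also had such a gap, at other places, and are left out for the same reason.

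Inside each cluster the order changed from gene to gene. Among the upper 4 arrays normal 1 led in Egr1, Egr2 and Fosb, whereas normal 3 led in Arc, Nr4a1 and Homer1. Mutant 3 was the lowest of the 4 in Egr1, Egr2 and Homer1 and the second highest in Arc, Nr4a1 and Fosb. Mutant 2 held the lowest value of all 8 arrays in Egr1, Egr3, Fos, Junb, Arc and Nr4a1.

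The 4 genes without such a gap, Fos, Fosb, Junb and Dusp1, gave 6 pairs of the 45 that the 10 genes form, and p-values were adjusted over all 45. With 2 or more arrays on either side, the largest gap was 28.5% of the range in Junb and 28.2% in Dusp1. These lay close to the cut of 30%, and Fos (17.3%) and Fosb (17.7%) lay farther below it. In Fosb, normal 1 stood alone at 7.09, above the next array at 5.53. The closest pair was Fos and Fosb, with Pearson's r of 0.725 (two-sided exact permutation p = 0.0691, adjusted p = 0.183) and Spearman's rho of 0.238 (exact p = 0.582, adjusted p = 0.728) over 8 arrays. Without the 2 arrays farthest from the Fos median, normal 1 and mutant 2, r was -0.24, so the relation rests on those animals. Fosb and Dusp1 gave r of 0.623 and rho of 0.643 (two-sided exact permutation p = 0.102 and 0.0962, adjusted p = 0.229 and 0.228), and r of -0.15 without the 2 arrays farthest from the Fosb median. The other 4 pairs had r between -0.08 and 0.45, with adjusted exact permutation p of 0.393 or more for r and 0.626 or more for rho. Without the 2 farthest arrays their r ran from -0.78 to 0.61.

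Marker lists of brain regions differed between arrays, and most of them matched these genes on some arrays only. Their part in the results was not tested. The striatal, thalamic and habenular, and telencephalic means were entered as covariates, as given below, and the CA1 pyramidal mean was not. The striatal list was high in normals 1, 3 and 4, where Egr2, Egr1 and Homer1 were high, but lowest of all in mutant 3 (6.59), where these genes were higher than in the other mutants. Mutant 3 had the highest telencephalic mean, 7.95, and normal 1, with the highest Egr1 and Egr2, had one of 5.59, below the 6.15 of mutant 1. The thalamic and habenular mean was lowest in mutant 3 (6.22) and normals 4 and 3 (6.26 and 6.96), but 8.46 in normal 1. Both measured CA1 pyramidal genes of 5 listed, Wfs1 and Pou3f1, had their highest values on the same 4 arrays, with a mean of 9.28, 8.95, 9.64 and 9.55 in normals 1, 3 and 4 and mutant 3 against 7.67 to 8.02 elsewhere. Dentate granule genes (5 of 7) had another order, with means of 7.07 and 6.05 in mutants 3 and 1 and of 5.03 to 5.71 elsewhere. Only 1 of these 5 genes exceeded the absent controls on every array. Pan-neuronal genes (10 of 10) varied less, between 9.58 and 10.15.

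Mean levels of glial and border cell lists differed between the genotypes, and their part in the results was not tested. Oligodendrocyte genes (7 of 9) averaged 10.14 to 10.63 in the normals and 9.03 to 9.81 in the mutants, with 7 of 7 genes lower and 1 of 19 probe sets past the threshold in limma. Astrocyte genes (9 of 9) averaged 8.81 to 9.17 in the normals and 9.46 to 9.56 in mutants, and microglial genes (9 of 10) 7.97 to 8.52 and 8.70 to 8.95. In mutants 8 astrocyte genes were higher and 1 lower, and 2 of 21 probe sets passed in limma. Microglial genes were split, with 5 higher and 4 lower, and 1 of 14 probe sets passed. The smallest p of these lists were those of Gfap of astrocytes (2.27 ± 0.22 SE, limma adjusted p = 0.0152) and Mpeg1 of microglia (2.07 ± 0.15 SE, adjusted p = 0.00263), both higher in mutants. Meningeal genes (10 of 10) averaged 5.09 to 5.85 in the normals and 5.80 to 6.77 in mutants. Choroid plexus genes (10 of 11) stood at 8.30 and 7.31 in mutants 1 and 3 and at 4.45 to 5.55 on the other 6 arrays. Unlike Egr1, Egr2 and Homer1, the means of the astrocyte, microglial and oligodendrocyte lists placed normal 2 with the normals and mutant 3 with the mutants.

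With the striatal marker mean as a covariate all 13 differences kept a negative sign and their median shrank to -0.26. Egr2 was then at -0.31 ± 1.11 and Egr1 at -0.17 ± 0.78 (SE), while Egr3 did not shrink (-0.255, against -0.214 without the covariate). The striatal mean was above 9 in 3 normals and below 7.5 in every mutant, so this fit also takes out part of the genotype difference. With the thalamic and habenular mean as a covariate the median was -0.80, and with the telencephalic mean, chosen after the data were seen, it was -0.94. Without normals 1, 3 and 4, also chosen afterwards and the normals in which most of these genes were highest, so that a shift toward 0 follows from the choice, 7 of 13 differences were negative with a median of -0.04. Egr2 was then at 0.03, Egr1 at 0.10 and Arc at 0.03. This comparison sets 4 mutants against normal 2 alone and assumes that the lone normal varies as the mutants do. Without normal 1, whose RNA controls stood apart, all 13 remained negative, with a median of -0.95 and Egr2 at -1.95. Fos was then at only -0.05 and Dusp1 at -0.02, while Egr3, at -0.33, and Junb, at -0.76, were more negative than with all arrays. Without mutant 3 the median was -1.38 and without normal 2 it was -1.46, where the smallest adjusted p in limma was 0.0587, on the Homer1 probe set that lay within the absent controls.

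**Figure D4:**
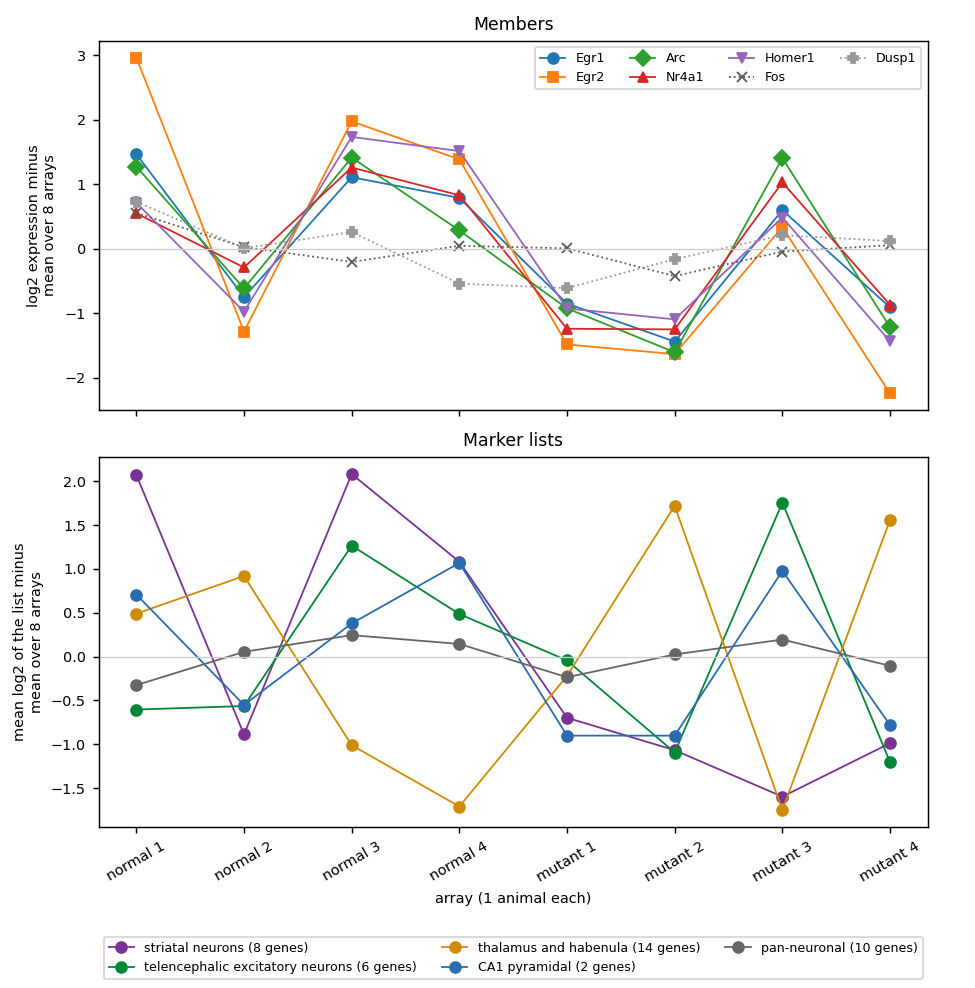
Log2 expression of 7 members (upper panel) and mean log2 of 5 marker lists (lower panel) by array, each after subtraction of its own mean over the 8 arrays. Egr1, Egr2, Arc, Nr4a1 and Homer1 are above 0 in normals 1, 3 and 4 and mutant 3 and below 0 elsewhere; the striatal list follows them in the normals but not in mutant 3, where the telencephalic list peaks.

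Some animals of the different genotypes shared an age. At 38.3 weeks, both female, mutant 1 was lower than normal 1 in Egr1 (9.80 and 12.12), Egr2 (3.98 and 8.43), Arc (6.37 and 8.57), Nr4a1 (7.04 and 8.83) and Homer1 (4.65 and 6.29). At 25.6 weeks, all male, mutant 2 was lower and mutant 3 higher than normal 2 in each of these 5 genes. At 19.6 weeks the female mutant 4 was lower than the male normal 3 in each of them. The remaining genes varied more. Mutant 1 was higher than normal 1 in Egr3 (5.36 and 4.92) and Junb (5.87 and 5.25), and lower in Fos, Fosb and Dusp1. Mutant 2 was lower than normal 2 in all of these. Mutant 3 was lower than normal 2 in Egr3 and Fos, and higher in Fosb, Junb and Dusp1. Mutant 4 was higher than normal 3 in Fos (9.34 and 9.08), and lower in Egr3, Fosb, Junb and Dusp1. With age as a random block the 13 differences ran from -2.63 to -0.18, and the smallest adjusted p in limma was 0.693.

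No member was called for sex or age. In limma with genotype as a term, 0 of 13 probe sets passed between females and males and 0 had an unadjusted p under 0.05, where 0.0354% and 2.45% of all probe sets did. Fos came nearest, at 0.33 ± 0.16 (SE, female minus male, unadjusted p = 0.0720). For age, 0 of 13 passed and 0 had an unadjusted p under 0.05, against 0 and 6.45% of all probe sets, and the slopes ran from -0.04 to 0.04 per week on the log2 scale. In the interaction of genotype and sex, fitted over 4 cells of 2 animals, 0 of 13 passed, as did 0 of all probe sets. At an unadjusted p under 0.05 there were 2, Fosb (-2.17 ± 0.79 SE, adjusted p = 0.442) and Egr3 (0.68 ± 0.27 SE, adjusted p = 0.461), against 10.5% of all probe sets.

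Related genes of the same response were counted in the same fit. Of 22 other immediate early transcription factor genes measured (of 24 listed), 15 had higher and 7 lower means in mutants, with a median difference of 0.23 against 0.01 over all 12393 genes, and 0 of their 35 probe sets passed in limma (2 at an unadjusted p under 0.05). The smallest p were those of Cebpb, a leucine zipper factor of inflammation and the acute phase (0.94 ± 0.23 SE, adjusted p = 0.417), and Klf6, a zinc finger factor (0.53 ± 0.28 SE). Cebpb stood at 6.25 to 7.18 in normals and at 7.32 to 8.02 in mutants, without overlap. Egr4, the remaining Egr family gene, chosen after its values were seen, stood at 6.35, 5.35, 6.95 and 6.59 in normals and at 5.85, 4.88, 6.60 and 5.32 in mutants (-0.65 ± 0.43 SE). Jun, the partner of Fos in AP-1 and also chosen afterwards, stood at 7.44 to 8.37 in normals and 7.65 to 8.72 in mutants.

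Of 29 activity-induced effector genes (of 34 listed), 15 had higher and 14 lower means in mutants, with a median of 0.02 and 0 of 50 probe sets past the threshold in limma (6 at an unadjusted p under 0.05). Rgs2, a regulator of G protein signalling, stood at 10.41, 9.42, 10.23 and 10.25 in normals and at 9.42, 9.13, 8.76 and 8.93 in mutants, a difference of -1.02 ± 0.24 (SE, adjusted p = 0.404). Unlike Egr1 and Egr2, Rgs2 was lowest in mutant 3. Inhba, the activin A subunit gene, differed by -0.81 ± 0.29 (SE, adjusted p = 0.795). Bdnf, the neurotrophin gene and a further choice made after the values were seen, stood at 5.14 to 7.15 in normals and at 6.39 to 8.20 in mutants, with its highest value in mutant 3.

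Upstream kinases, phosphatases and transcription factors had 15 lower and 4 higher means among 19 measured genes (of 26 listed), with a median of -0.22 and 0 of 45 probe sets past the threshold in limma (5 at an unadjusted p under 0.05). The same 4 arrays were on top for 31.11% of these 45 probe sets, against 4.54% of all probe sets, 11.43% of those of the other transcription factors and 5 of the 50 of the effectors. They were also on top for 2 of the 7 probe sets of Egr and Nr4a partners and for 0 of the 6 of Homer partners. Several of the 45 measure the same gene. Camk4, a calcium-activated kinase that phosphorylates CREB, stood at 7.06, 5.31, 6.58 and 6.25 in normals and at 5.20, 5.30, 5.48 and 5.05 in mutants (-1.04 ± 0.33 SE, adjusted p = 0.706). Ppp3ca, the catalytic subunit of calcineurin, stood at 12.50, 12.48, 12.42 and 12.38 in normals 1, 3 and 4 and mutant 3, and at 11.31 to 11.53 on the other 4 arrays.

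Partners of the members gave no call either. The 4 measured Homer partners of 10 listed had a median of 0.35, with Homer3 at 0.26 ± 0.20 and Shank3 at 0.44 ± 0.39 (SE), and 0 of 6 probe sets passed in limma (0 at an unadjusted p under 0.05). Dlg4, chosen after its values were seen, differed by 0.48 ± 0.93 (SE). It stood at 5.09 in normal 1, whose RNA controls stood apart, and at 8.03 to 9.86 elsewhere. Shank3 was also lowest in normal 1, at 7.45, while the remaining partners were not. Of 5 partners of Egr and Nr4a proteins, the Rxrg gene of a retinoid X receptor, with which Nr4a1 can pair, had the smallest p. It stood at 8.66, 5.64, 8.27 and 7.33 in normals and at 5.90, 5.41, 5.35 and 5.42 in mutants (-1.96 ± 0.59 SE, adjusted p = 0.640). Rxrg, like the striatal marker mean, was higher in normals 1, 3 and 4 than elsewhere and lowest in mutant 3. The receptor gene Rxra differed by 0.30 ± 0.14 (SE, adjusted p = 0.872).

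**Figure D5:**
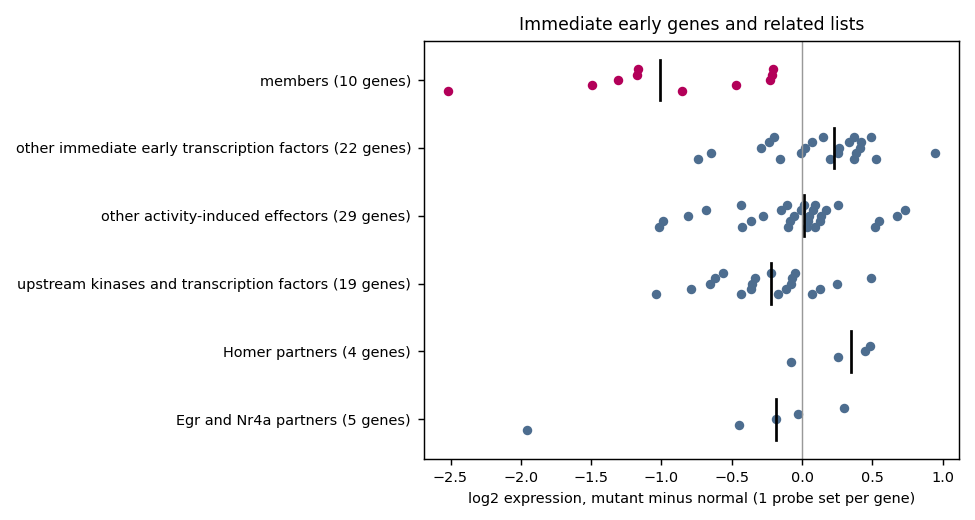
Log2 difference of mutant minus normal, 1 probe set per gene, for the 10 immediate early genes (magenta) and 5 related lists (blue), with the median of each as a black bar. The members lie from -2.52 to -0.20 with a median of -1.01, while the medians of the other lists lie between -0.22 and 0.35.

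Among 7072 other genes, those whose 8 values were most like the mean standardised profile of the 10 members, ranked by Pearson's r, were Chst15, Clip4, Baiap2, Phactr1, Ppp3ca, Smyd5, Pou3f1 and Abhd14a. That profile divided the arrays as Egr1 does, at 0.41 to 0.91 in normals 1, 3 and 4 and mutant 3 and at -1.09 to -0.27 elsewhere, so the ranking largely restates this division and its r values are not given. Chst15, a sulfotransferase gene for chondroitin sulfate, stood at 8.66, 6.93, 8.64 and 8.67 in normals and at 7.07, 6.05, 8.10 and 6.45 in mutants. Baiap2, which encodes the postsynaptic protein IRSp53, stood at 9.81, 6.84, 9.15 and 8.62 in normals and at 7.24, 5.65, 8.93 and 5.74 in mutants.

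By the same ranking, and with r left out for the same reason, the genes most like Arc were Srf, the gene of serum response factor, Mast3, Ptk2b, a calcium-responsive tyrosine kinase gene, and Pip5k1a. Srf stood at 7.93, 7.19, 7.87 and 7.63 in normals and at 7.14, 7.08, 7.90 and 7.07 in mutants. Those most like Fos were Rassf1 (r = 0.930), Gsn, the gene of the actin-severing protein gelsolin (0.898), Fgfr2 (0.871) and Ptcd1 (0.866). Gsn was highest in normal 1, 9.44, as Fos was, and lay between 8.28 and 8.81 on the other 7 arrays. Rassf1, Fgfr2 and Ptcd1 were also highest in normal 1, the array whose RNA controls stood apart, and no r without it is given. These likenesses describe 8 arrays and the 16 genes were picked as the highest of 7072.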

How the data were processed

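Log2 expression values per probe set were deposited by the authors, who made them with RMA, and GCOS 1.4 is also named, per the submitters' processing notes. RMA corrects background, normalizes and summarises probes. The genome build behind the array design is not given in the sources used here. Of 22690 probe sets, 64 controls were left out. Of the rest, 20380 carried 1 gene symbol, 691 several and 1555 none, and 20351 (99.9%) of the first matched the gene table. No dim probe set was removed. The 15 probe sets for absent bacterial transcripts had a median of 2.35 and reached 3.72. With no read counts behind array values, precision rests on the number of animals.

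The genotypes were compared on all 22626 probe sets by lmFit and eBayes of limma (3.58.1, under R 4.3.3), with Benjamini-Hochberg adjustment and a threshold of 0.05. Sex, age and the interaction of genotype and sex were fitted the same way. Where 1 probe set per gene was needed, the one with the highest mean over the arrays was used. Lists are described by counts and medians, with no test of a list. Correlations carry two-sided exact permutation p-values over all pairings. The rule to give none where a gap over 30% of the range, with 2 or more arrays on either side, divides the arrays was set after seeing the values. The members and lists were chosen with earlier results of these data known. Named genes were the members, the 2 genes of each related list with the smallest p, the genes most alike (8 for the mean profile, 4 each for Fos and Arc) and Gusb, and others are said to be chosen afterwards. The fit was tested on simulated data with known changes. Alternatives were other choices of probe sets, filters, normalizations, variance models and covariates, a random block for age, and arrays left out. Figures were drawn with Python 3.11.15.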

Additional observations from a re-analysis of the deposited data

Results flagged for a closer look

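In each of the 2 genotypes the highest or lowest of the 4 animals was compared with the range of its group for all 13 probe sets. Of these 26 groups, 2 had an animal far from the other 3, where chance flags about 1 in 20. Both were mutant 3, at 9.31 for Nr4a1, where the other mutants lay between 7.03 and 7.41, and at 5.53 for Fosb, where they lay between 4.34 and 4.52. Mutant 3 also had the highest telencephalic marker mean (7.95) and the lowest striatal (6.59) and thalamic (6.22) means of all arrays.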

How the results depend on the processing

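Under the 26 alternatives 0 of the 13 immediate early probe sets passed in limma, and the smallest adjusted p was 0.0587 (without normal 2). Of 324 recomputed differences 8 changed sign. Without normals 1, 3 and 4, an alternative chosen after seeing the data, Arc was at 0.028, Egr1 at 0.10, Egr2 at 0.30 and 0.026, Fosb at 0.10 and Homer1 at 0.23. Dusp1 was at 0.15 without normals 1 and 3, and Junb at 0.32 without mutants 2 and 4. The cause was not tested. The numbers of all probe sets higher and lower in mutants, 18 and 2, were 50 and 10 with array weights, 7 and 0 with sex, 10 and 0 with age, 6 and 0 with both, and 0 and 0 with the striatal mean. Arrays left out gave 6 and 0 without normals 1 and 3, 5 and 0 without mutants 2 and 4, and 0 and 0 without normals 1, 3 and 4, where fewer animals are tested. The lower count was 1 with the thalamic mean, with the telencephalic mean (added later), with 1 probe set per gene and after dropping those with a suffix for cross-hybridisation. Leaving out 1 animal gave 6 to 15 higher and 0 to 12 lower, the 12 without normal 2 and the 6 without normal 3, mutant 1 or mutant 4. Signal near the absent controls limits the third Homer1 and both Egr2 probe sets. No paired analysis was possible because replicate numbers were given in accession order, and animals of the same age were taken as a random block instead.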
